A study of Mus musculus with 8 samples.

Results

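The 1211 sites described here are peaks of an E2F3 antibody in wild-type mouse fibroblasts that overlapped a peak of a HELLS antibody by at least 1 bp in the same cells and overlapped no peak of an H3K27me3 antibody. They were 1211 of 8889 wild-type E2F3 peaks (13.6%) and covered 1.10 Mb of the mouse build mm9. They are called co-bound sites below, in the sense that peaks of separate immunoprecipitations overlapped, which does not show that both proteins sat on one DNA molecule. The sites were chosen by the wild-type peak lists of the 3 antibodies, so wild-type values at them are a description, whereas the libraries of E2f3-null cells took no part in the choice. IgG entered it only as the control of the peak calling.

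E2F3 is a member of the E2F family of transcription factors, which bind promoters of genes needed for DNA replication and cell division and are held in check by the retinoblastoma family of pocket proteins. HELLS, also called LSH, is a helicase of the SNF2 family that remodels nucleosomes and is known for its role in DNA methylation. Trimethylation of lysine 27 on histone H3 (H3K27me3) is laid down by Polycomb repressive complex 2 and is typical of promoters kept silent. Sites that overlap a peak of this mark are left out here, though the lack of a peak call does not show that the mark is absent.

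Fibroblasts of E13.5 mouse embryos (MEFs) were either E2f3-/- (E2f3-null here) or wild type, and chromatin of each genotype was immunoprecipitated with the 3 antibodies and with control IgG, which gave 1 library each. The labels state 100000000 cells and 10 µg of antibody for an immunoprecipitation, 22 cycles of PCR and single-end reads of 36 nucleotides. The labels do not give the number of embryos, whether cultures were pooled or how the E2f3 allele was made. The deposited IgG reads of both genotypes were identical line by line, so IgG was counted as 1 library and carries no genotype of its own. It may be a pool of both genotypes, since its 7219419 distinct reads are close to the 7235504 tags of the E2f3-null and wild-type controls that the peak headers name, added up. There are no replicates: every interval below covers counting error alone, no p-value was computed, and a difference between libraries cannot be told apart from a difference between genotypes. The libraries measure DNA, so the labelled cell type and the absence of E2F3 protein were not checked against expression here, and binding in fewer cells cannot be told apart from weaker binding in each cell.

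The ChIP libraries held between 3799779 distinct reads (E2f3-null H3K27me3) and 5640555 (wild-type H3K27me3), and IgG held 7219419. Over all 1211 sites together 29745 E2f3-null and 91046 wild-type reads of the E2F3 antibody were counted, 46834 E2f3-null and 42016 wild-type reads of the HELLS antibody, 4149 E2f3-null and 19135 wild-type reads of the H3K27me3 antibody, and 21609 IgG reads. Ratios below are scaled by the number of reads each library had outside peaks. To be called lower or higher, a site needed a scaled difference of 2-fold or more and an exact 95% interval that excluded 1. Log2 ratios per site were taken with 0.5 added to both counts. The comparison class is the 5846 wild-type E2F3 peaks with neither a HELLS nor an H3K27me3 peak, called E2F3-only peaks below. A further 433 E2F3 peaks had both other peaks and 1399 had an H3K27me3 peak without HELLS.

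Co-bound sites were broad and high among E2F3 peaks. Their median width was 868 bp (range 199 to 2771), against 647 bp for E2F3-only peaks, and the authors' MACS score of the E2F3 peak, which is 10 times the negative log10 of the peak's p-value, had a median of 279.8 against 123.6. In the quartile of E2F3 peaks with the highest scores 30.7% were co-bound, against 3.54% in the lowest quartile, so 683 of the 1211 sites came from the top quartile. The sites lay apart from each other, with a median gap of 923558 bp between neighbours, and 22 of 1190 neighbouring pairs were under 2 kb apart. They carried 1208 HELLS peaks, of which 17 touched more than 1 site, so a few sites share a HELLS peak. The HELLS peak covered a median of 631 bp of the site, and its summit lay inside the E2F3 peak at 1185 sites.

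The HELLS peaks themselves were shallow. Their scores had a median of 69.7 and a maximum of 2242, where 50 is the peak caller's cut-off, and their fold enrichment as given by the authors had a median of 7.51. At 1032 of 1211 sites the HELLS peak had a false discovery rate over 5% in the authors' table, and at 0 sites the E2F3 peak did. That rate did not follow the HELLS score. It was 0% at the site with the highest score (2242), 100% at the next (474.8) and 4.88% at a site scored 65.5. A rate over 5% therefore does not mark the weaker HELLS peaks. Sites with a HELLS peak at 5% or less and sites above it gave nearly the same HELLS values in E2f3-null cells: 76.0% of the 179 sites (95% interval 69.0 to 82.0) and 74.4% of the 1032 sites (71.6 to 77.1) carried an E2f3-null HELLS peak. The score separated the sites more: that share was 82.8% in the quartile with the highest wild-type HELLS scores and 65.7% in the quartile with the lowest.

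At the edge of the rule, the 3 co-bound sites with the least HELLS overlap shared 21, 26 and 32 bp with a HELLS peak. That at chr11:113612070-113612775 had 6 E2f3-null and 7 wild-type HELLS reads against 12 IgG reads, while that at chr8:90722683-90723835 had 65 and 40 against 29. Just outside, the E2F3 peaks nearest to a HELLS peak lay 14, 17 and 35 bp away, and that at chr5:93635411-93635644 had 3 E2f3-null and 2 wild-type HELLS reads and 1 IgG read. For the other condition, the co-bound site nearest to an H3K27me3 peak lay 7 bp from it at chr2:140220797-140221428, with 1 E2f3-null and 10 wild-type H3K27me3 reads and 6 IgG reads. The peak left out with the least H3K27me3 overlap, 86 bp at chr2:18597872-18598602, had 6 and 9 such reads and 12 IgG reads.

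**Figure D1:**
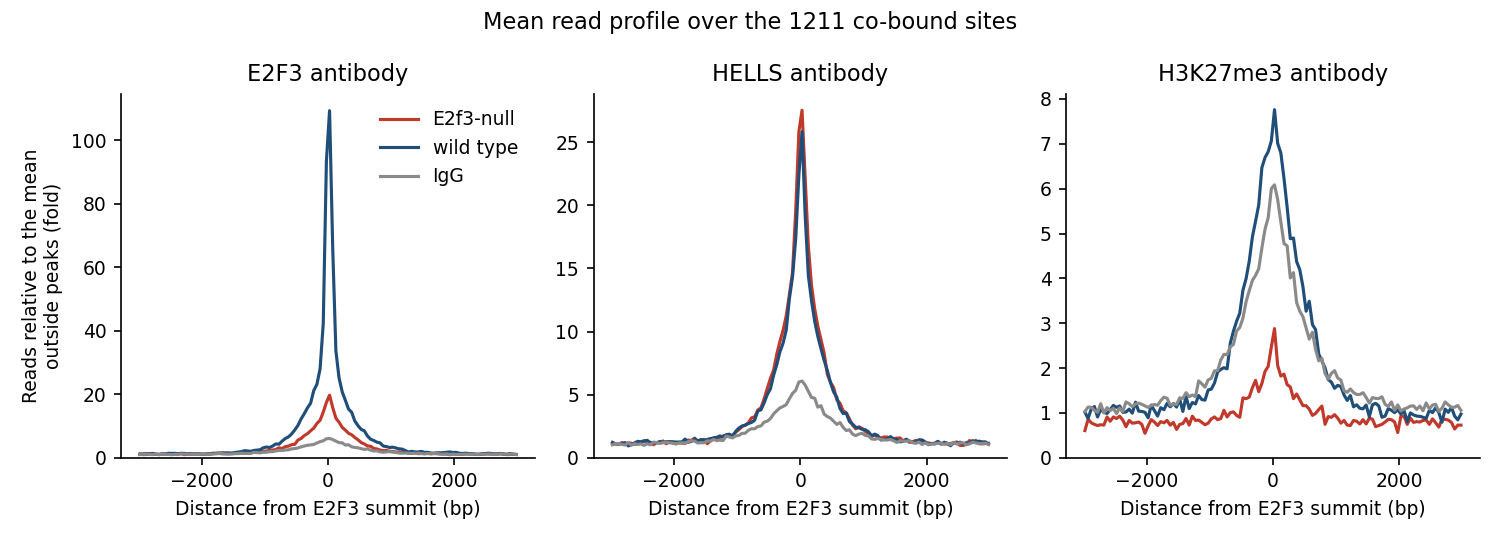
Mean read profile over the 1211 co-bound sites for the E2F3, HELLS and H3K27me3 antibodies. The x axis is the distance in bp from the wild-type E2F3 summit, and the y axis is reads in 50 bp bins relative to the library's mean outside peaks, with a separate scale in each panel. Red lines are E2f3-null cells, blue lines wild-type cells and grey lines the IgG library, drawn in every panel. The HELLS lines of both genotypes lie close together, with the E2f3-null line slightly higher at the centre, at 23.8-fold in E2f3-null and 21.2-fold in wild-type cells within 100 bp of the summit, while the E2F3 antibody reached 16.8-fold in E2f3-null and 77.7-fold in wild-type cells. The wild-type E2F3 library set the summits, which favours its own reads at the centre.

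The read profile around the E2F3 summit shows all libraries on one axis. Within 100 bp of the summit HELLS reads stood 23.8-fold over the library's mean outside peaks in E2f3-null cells and 21.2-fold in wild-type cells. The E2F3 antibody stood at 16.8-fold in E2f3-null cells and 77.7-fold in wild-type cells. The wild-type E2F3 library set the summits, which favours its own reads at the centre. Over whole sites the pooled E2F3 ratio of E2f3-null to wild type was 0.340. H3K27me3 reads stood at 2.36-fold in E2f3-null and 7.16-fold in wild-type cells, and IgG at 5.80-fold. IgG reads therefore also gathered at these sites, and every enrichment below is given over IgG as well as between genotypes. Beyond 2500 bp from the summit all libraries lay between 0.780-fold and 1.24-fold.

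HELLS reads stood above IgG at most co-bound sites in cells without E2f3. A site held a median of 35 HELLS reads in E2f3-null cells and 33 in wild-type cells, against 16 IgG reads. E2f3-null HELLS was called higher than IgG at 956 sites (78.9%), against 40.5% of all 8889 E2F3 peaks, and at 1726 of the 5846 E2F3-only peaks (29.5%). The median log2 ratio of E2f3-null HELLS over IgG was 1.53 at co-bound sites (quartiles 1.16 and 1.86), 0.81 at E2F3-only peaks and 1.61 at the 433 peaks with both HELLS and H3K27me3. With all sites pooled, the scaled ratio over IgG was 2.98 (95% interval 2.93 to 3.03) at co-bound sites and 1.89 (1.87 to 1.91) at E2F3-only peaks. Wild-type HELLS was called higher than IgG at 1018 co-bound sites, against 29.5% of all E2F3 peaks, a count that the choice by HELLS peaks fixes.

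The authors' peak lists of the E2f3-null cells gave the same order. An E2f3-null HELLS peak overlapped 904 co-bound sites (74.6%, 95% interval 72.1 to 77.1), where 42.2% of all E2F3 peaks had one and 33.8% of E2F3-only peaks (32.6 to 35.0). Sites with all 3 wild-type peaks were close to the co-bound sites in this list, with E2f3-null HELLS peaks on 303 of 433 (70.0%, 65.4 to 74.3). HELLS peaks of the 2 genotypes were called against control files of different size, with 3791438 tags for E2f3-null and 3444066 for wild-type cells in the file headers, so a peak missing from one list need not be a site with fewer reads.

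**Figure D2:**
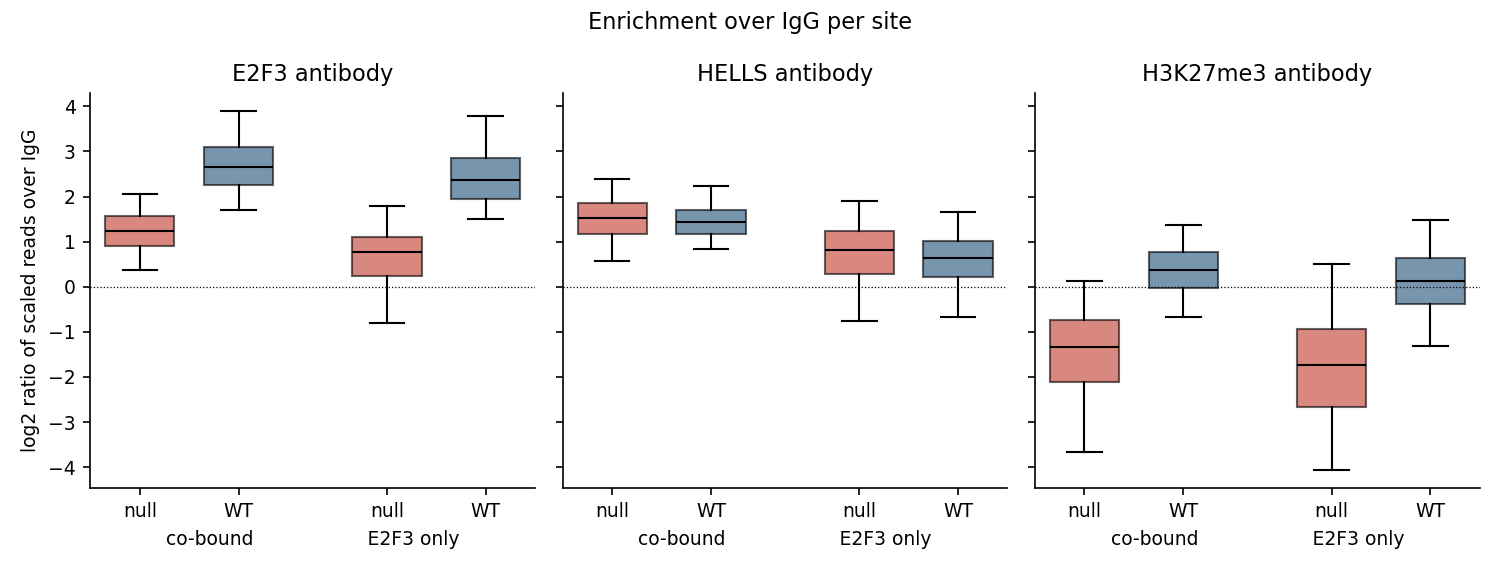
Log2 ratio of scaled reads over IgG per site for each antibody, in E2f3-null (red) and wild-type (blue) libraries, at the 1211 co-bound sites (left pair) and the 5846 E2F3-only peaks (right pair). Boxes span the quartiles with a line at the median, and whiskers reach the 5th and 95th percentiles of sites. For HELLS the medians are 1.53 in E2f3-null and 1.43 in wild-type cells at co-bound sites, against 0.81 and 0.64 at E2F3-only peaks.

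Because co-bound sites had higher E2F3 scores than E2F3-only peaks, the HELLS values were also set side by side at like E2F3 score. In the lowest quartile of scores the median log2 ratio of E2f3-null HELLS over IgG was 1.13 at 79 co-bound sites and 0.46 at 1538 E2F3-only peaks. It was 1.32 and 0.69 in the second quartile, and 1.46 and 0.91 in the third. In the highest quartile it was 1.62 at 683 co-bound sites and 1.05 at 1307 E2F3-only peaks. The co-bound median was above the E2F3-only median in each quartile, and both increased with the E2F3 score. The share with an E2f3-null HELLS peak ran the same way, with 40.5% against 16.5% in the lowest quartile and 82.6% against 52.3% in the highest.

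**Figure D3:**
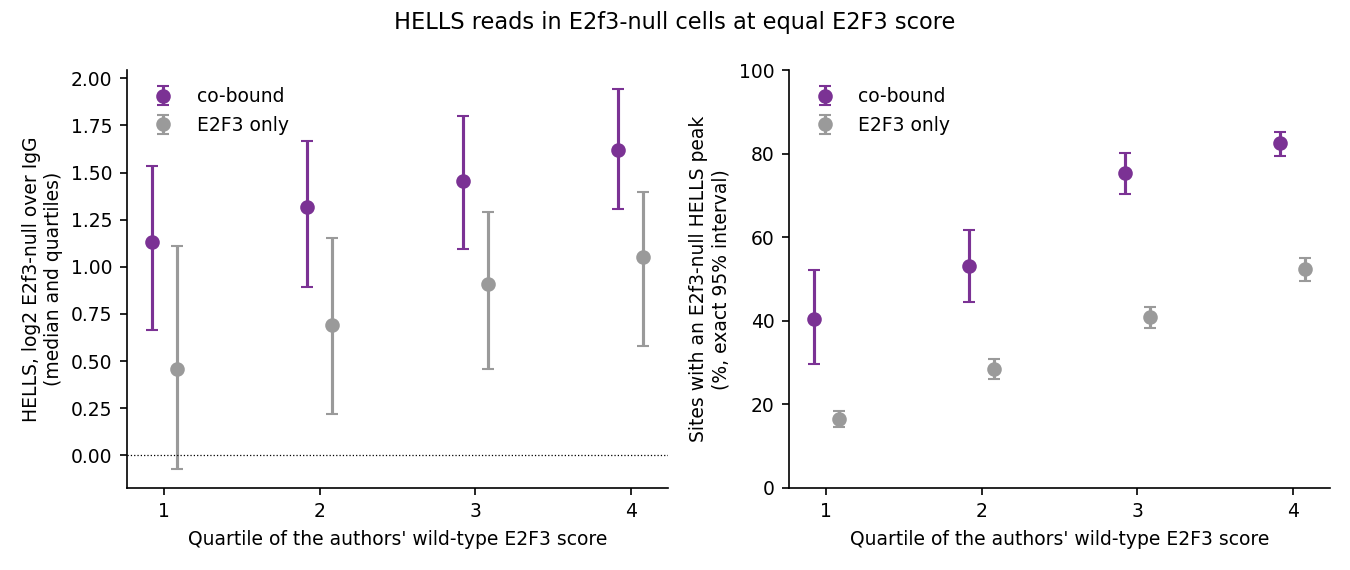
HELLS in E2f3-null cells by quartile of the authors' wild-type E2F3 score (x axis, 1 lowest to 4 highest), at co-bound sites (purple) and E2F3-only peaks (grey). The left panel gives the median log2 ratio over IgG with quartiles of sites, and the right panel the percentage of sites with an E2f3-null HELLS peak with exact 95% intervals. Co-bound sites lie above E2F3-only peaks in all 4 quartile groups of both panels, and the quartile ranges of the left panel overlap.

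Width also differed between the classes, while the IgG density was nearly equal, with a median of 5.13-fold over the mean outside peaks at co-bound sites and 5.11-fold at E2F3-only peaks, and the HELLS values were set side by side at like width and at like IgG density as well. Among the narrowest quartile of E2F3 peaks, 486 bp or less, the median log2 ratio of E2f3-null HELLS over IgG was 1.42 at 117 co-bound sites and 0.46 at E2F3-only peaks, and among the widest quartile it was 1.52 and 0.98. Across quartile groups of IgG reads per kb it was 1.80 and 0.85 in the lowest quartile and 1.29 and 0.74 in the highest. Co-bound sites had the higher median in each of these quartile groups. The whole difference in medians between both classes was 0.72 on the log2 scale for HELLS and 0.46 for the E2F3 antibody.

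Between genotypes, HELLS reads at co-bound sites differed little. The log2 ratio of E2f3-null over wild type had a median of 0.096 (quartiles −0.19 and 0.36), and the pooled scaled ratio was 1.11 (95% interval 1.09 to 1.12). HELLS was called lower in E2f3-null cells at 16 sites (1.32%), where 0.641% of all E2F3 peaks were, and higher at 8 sites, where 2.38% were. Nothing is read from these counts, since the wild-type HELLS library chose the sites and so favours high wild-type values there. E2F3-only peaks, which were chosen for having no wild-type HELLS peak, had a median of 0.18. The direction of the small difference depends on the scaling. With libraries scaled to the median of peaks that also have an E2f3-null peak, the median at co-bound sites was −0.23. The median of all E2F3 peaks was then −0.15 instead of 0.17. At any fold, the interval excluded 1 at 99 sites, with 78 higher in E2f3-null cells (6.44%, beside 5.85% of all E2F3 peaks) and 21 lower (1.73%, beside 0.754%), and nothing is read from these counts either.

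The E2F3 antibody gave fewer reads at co-bound sites in E2f3-null cells, though not down to the IgG level. A site held a median of 23 reads in E2f3-null and 66 in wild-type cells, against 16 for IgG. The median log2 ratio of E2f3-null over wild type was −1.44 (quartiles −1.88 and −1.05), and the pooled ratio was 0.340 (0.335 to 0.344). E2F3 was called lower in E2f3-null cells at 935 sites (77.2%), beside 73.3% of all E2F3 peaks, and higher at 0 sites, beside 0% of all E2F3 peaks. The wild-type E2F3 library chose every peak in this comparison, so the counts are given as a description. With libraries scaled to the median of peaks that also have an E2f3-null peak, the median at co-bound sites was −0.24. The median of all E2F3 peaks was then −0.33 instead of −1.53.

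Relative to IgG, E2f3-null reads of the E2F3 antibody were called higher at 760 co-bound sites (62.8%), against 27.9% of all E2F3 peaks, and at 1113 E2F3-only peaks (19.0%). The median log2 ratio over IgG was 1.23 at co-bound sites and 0.77 at E2F3-only peaks. The 433 peaks with both HELLS and H3K27me3 had like values, with a median of 1.29 and 243 called higher than IgG (56.1%). The authors' E2f3-null list for this antibody had a peak on 665 co-bound sites (54.9%, 52.1 to 57.7), beside 28.3% of all E2F3 peaks and 22.7% of E2F3-only peaks. In wild-type cells E2F3 was called higher than IgG at 1203 co-bound sites, beside 98.3% of all E2F3 peaks, which the choice by E2F3 peaks fixes. What the antibody brought down in cells without E2f3 was not tested.

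**Figure D4:**
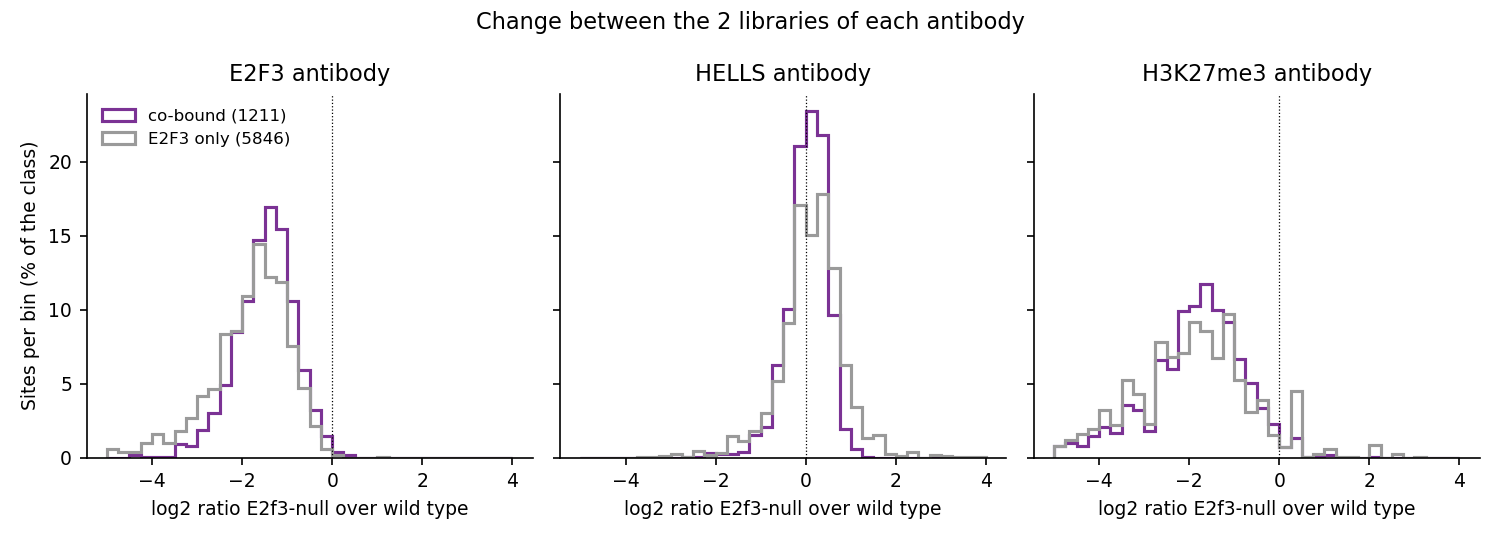
Histograms of the log2 ratio of E2f3-null over wild-type reads per site (x axis) for each antibody, as the percentage of sites of each class per bin of 0.25 (y axis), for co-bound sites (purple) and E2F3-only peaks (grey). Values outside the axis are drawn in the end bins. The HELLS histogram has its median near 0, at 0.096 for co-bound sites, while the E2F3 median is −1.44 and the H3K27me3 median is −1.72.

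Sites with an E2F3-antibody peak in E2f3-null cells mostly had a HELLS peak in those cells. Both an E2F3-antibody and a HELLS peak of E2f3-null cells overlapped 609 co-bound sites (50.3%, beside 23.6% of all E2F3 peaks), a HELLS peak alone 295 (24.4%, beside 18.6%), an E2F3-antibody peak alone 56 (4.62%, beside 4.7%) and neither 251 (20.7%, beside 53.1%). Of the 665 sites with an E2f3-null E2F3-antibody peak 91.6% also had an E2f3-null HELLS peak (89.2 to 93.6), against 54.0% of the 546 sites without (49.7 to 58.3). The same split was seen outside these sites: over all E2F3 peaks the shares were 83.4% of 2512 peaks with and 26.0% of 6377 without an E2f3-null E2F3-antibody peak. The 665 sites were also wider, with a median of 943 bp against 751.5 bp, and had more wild-type E2F3 reads, 79 against 53, and the part of width and depth in this was not tested. As a description, since the wild-type libraries in both ratios chose the sites, Spearman's rho between the E2F3 and HELLS log2 ratios was −0.011 across the 1211 sites. At the 935 sites called lower for E2F3 the median HELLS log2 ratio was 0.12 and at the other 276 sites it was −0.0099, and nothing is read from these values.

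Read density, as reads per kb, ranked the sites alike in several libraries. Over the 1211 sites Spearman's rho of E2f3-null HELLS was 0.68 with wild-type HELLS, 0.59 with the E2F3 antibody in E2f3-null cells, 0.48 with IgG and 0.45 with wild-type E2F3. In turn, rho of the E2f3-null E2F3-antibody density was 0.57 with wild-type HELLS, 0.41 with IgG and 0.33 with wild-type E2F3. These are descriptions across sites that share libraries, width and whatever draws IgG reads to a site. Among these values, the E2f3-null reads of the E2F3 antibody ranked the sites more like wild-type HELLS than like wild-type E2F3. The order was the same at the 5846 E2F3-only peaks, with a rho of 0.72 with wild-type HELLS, 0.62 with IgG and 0.49 with wild-type E2F3.

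The summits gave a similar picture in position. The wild-type HELLS summit lay a median of 103 bp from the wild-type E2F3 summit, within 100 bp at 49.3% of sites and within 250 bp at 74.9%, with 618 summits to the left and 590 to the right. HELLS summits of E2f3-null cells lay a median of 67 bp from the wild-type HELLS summit and 123 bp from the wild-type E2F3 summit at 904 sites. At the 1976 E2F3-only peaks with an E2f3-null HELLS peak, that summit lay a median of 83 bp from the wild-type E2F3 summit. At the 665 sites with an E2f3-null E2F3-antibody peak, the wild-type HELLS summit lay a median of 124 bp from the wild-type E2F3 summit. The E2F3-antibody summit in E2f3-null cells lay there a median of 79 bp from the wild-type HELLS summit and 151 bp from the wild-type E2F3 summit. It was nearer to the HELLS summit at 438 of 665 sites (65.9%, 62.1 to 69.5), nearer to the E2F3 summit at 224 and equally far at 3. The peak caller's fragment size, which sets its summits, was 137 bp for that library, 115 bp for wild-type HELLS and 116 bp for wild-type E2F3 in the file headers.

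**Figure D5:**
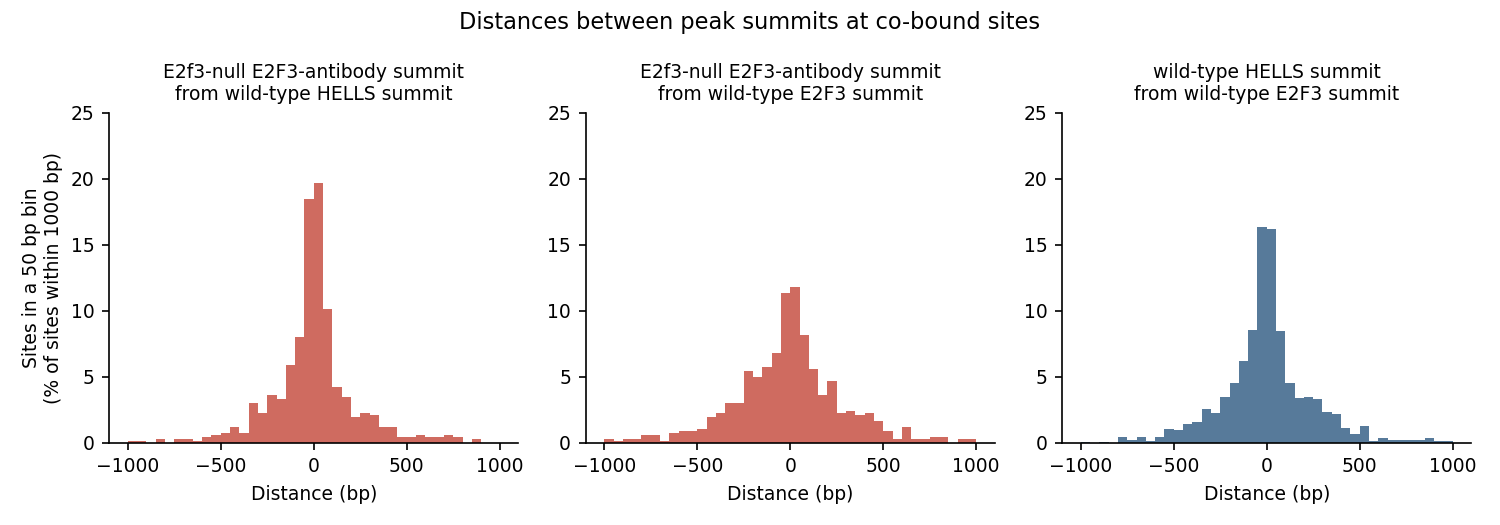
Distances in bp between summits at co-bound sites, as the percentage of sites within 1000 bp per 50 bp bin. Left and middle panels show the E2F3-antibody summit of E2f3-null cells at the 665 sites that have one, measured from the wild-type HELLS summit and from the wild-type E2F3 summit, and the right panel shows the wild-type HELLS summit measured from the wild-type E2F3 summit at all sites. The median distance is 79 bp in the left panel, 151 bp in the middle panel and 103 bp in the right panel. The right panel covers more sites, and its median over the same 665 sites is 124 bp.

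Scaled H3K27me3 reads were somewhat above the IgG level in wild-type cells and below it in E2f3-null cells. Before scaling, a site held a median of 3 reads in E2f3-null and 14 in wild-type cells, against 16 IgG reads. The median log2 ratio over IgG, which is scaled, was −1.34 in E2f3-null and 0.37 in wild-type cells. With all sites pooled, the scaled ratio over IgG was 0.38 in E2f3-null and 1.30 in wild-type cells. Wild-type H3K27me3 was called higher than IgG at 119 co-bound sites (9.83%), beside 24.8% of all E2F3 peaks, which the exclusion of H3K27me3 peaks keeps low. E2f3-null H3K27me3 was called lower than IgG at 397 sites (32.8%), against 28.9% of all E2F3 peaks and 36.5% of E2F3-only peaks. It was called higher at 2 sites, against 9.26% of all E2F3 peaks and 0.120% of E2F3-only peaks. The same exclusion keeps that count low. The median log2 ratio of E2f3-null over wild type was −1.72, beside −1.76 at all E2F3 peaks and −1.90 at E2F3-only peaks. Between genotypes 619 sites (51.1%) were called lower, beside 48.7% of all E2F3 peaks, with 0 sites higher, beside 0% of all E2F3 peaks. The wild-type H3K27me3 peaks helped to choose the sites, so these counts are given as a description. With libraries scaled to the median of peaks that also have an E2f3-null peak, the median at co-bound sites was −0.47. It was then −0.51 at all E2F3 peaks. Depth limits this comparison, since 149 sites had 0 reads in the E2f3-null library and 732 had 3 or fewer.

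An E2f3-null H3K27me3 peak overlapped 4 co-bound sites (0.330%, 95% interval 0.090 to 0.844), where 9.19% of all E2F3 peaks and 7 of 5846 E2F3-only peaks (0.120%) had one. The share over all E2F3 peaks includes those with a wild-type H3K27me3 peak. Among these, 50.6% of peaks with HELLS and 42.0% of peaks without HELLS had one, so the rule's exclusion keeps the co-bound share low. The nearest wild-type H3K27me3 peak lay a median of 89025 bp from a co-bound site and 70760.5 bp from an E2F3-only peak. It was under 1 kb away at 13 sites, 1 to 5 kb away at 33, 5 to 50 kb away at 364 and 50 kb or more away at 800, and 1 site lay on a chromosome with no such peak. The 13 sites under 1 kb had a median of 5 E2f3-null and 17 wild-type H3K27me3 reads against 11 IgG reads, more over IgG than the 800 distant sites with 3 and 14 against 17. The median log2 ratio of E2f3-null HELLS over IgG was 1.81 at the 13 sites under 1 kb, 1.39 at the 33 sites at 1 to 5 kb, 1.48 at the 364 sites at 5 to 50 kb and 1.56 at the 800 sites beyond, with no steady order by distance.

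Individual sites show the spread behind these medians. The site with the highest HELLS score, at chr9:44688725-44689943, had 398 HELLS reads in E2f3-null and 280 in wild-type cells, against 31 IgG reads. The scaled HELLS ratio there was 1.41 between E2f3-null and wild type (95% interval 1.21 to 1.65) and 17.6 over IgG (12.2 to 26.3), the highest over IgG among the sites with 50 or more E2f3-null HELLS reads. The E2F3 antibody gave 24 reads there in E2f3-null and 84 in wild-type cells. HELLS reads thus far outnumbered those of the E2F3 antibody at this site in both genotypes.

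A pair of other sites had far more HELLS than E2F3-antibody reads in E2f3-null cells, but fewer in wild-type cells. At chr17:28313836-28314817 HELLS had 215 reads in E2f3-null and 82 in wild-type cells, against 22 for IgG, which is a scaled ratio of 2.60 (2.01 to 3.40) between genotypes, the largest among the 99 sites whose interval excluded 1. At chr1:55144230-55145382 HELLS had 205 reads in E2f3-null and 114 in wild-type cells, against 27 for IgG, a ratio of 1.79 (1.41 to 2.27). The E2F3 antibody had 24 and 27 reads at these sites in E2f3-null cells and 95 and 134 in wild-type cells, so E2F3 reads were lower and HELLS reads higher in E2f3-null cells at both. At the other end, the 5 sites with the smallest HELLS ratios rested on 1 or 2 E2f3-null reads and 8 to 11 wild-type reads each, and 0 of the 5 had an E2f3-null HELLS peak.

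Among the 10 sites with the highest E2F3 scores, E2F3 reads ranged from 10 to 55 in E2f3-null cells (median 30.0) and from 145 to 335 in wild-type cells (median 244.5). All 10 carried E2f3-null peaks of both the E2F3 antibody and HELLS, and their HELLS ratio between E2f3-null and wild type ran from 0.479 to 1.60. The first of them, at chr5:66088491-66089792, was also among the 10 highest by HELLS score, with 83 HELLS reads in E2f3-null and 65 in wild-type cells, against 29 for IgG. Its E2F3 reads were 46 in E2f3-null and 258 in wild-type cells.

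The E2F3 ratio spanned a wide range among the 836 sites with 50 or more wild-type E2F3 reads. It was lowest at chr12:117643450-117644204, with 10 reads in E2f3-null and 207 in wild-type cells, a scaled ratio of 0.0502 (0.0237 to 0.0942). HELLS had 14 reads there in E2f3-null and 29 in wild-type cells, against 10 for IgG, and its ratio between genotypes was 0.479 (0.234 to 0.937), while wild-type HELLS was 4.01-fold over IgG (1.90 to 9.23). It was highest at chr13:108678721-108680435, with 61 reads in E2f3-null and 75 in wild-type cells, a ratio of 0.845 (0.593 to 1.20), and HELLS had 89 and 65 reads there. The 5 sites with the largest E2F3 ratios all carried E2f3-null peaks of the E2F3 antibody and of HELLS, and of the 5 with the smallest ratios 1 carried the first and 3 the second.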

How the data were processed

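All 6 ChIP libraries and 1 IgG library were used, the IgG files of both genotypes being identical. The deposited reads are aligned positions, and the submitters' processing notes name mm9. The aligner is not given in the sources used here. About 98.3% to 98.9% of reads per file were 25 bp long. The authors ran MACS 1.4.0beta on each library against IgG at a p cutoff of 1e-05, per the file headers. Each deposited peak comes with a tag count, a score, a fold enrichment (a ratio) and a false discovery rate in percent, and each deposited summit with its signal height. Score, fold and false discovery rate were used to describe, rank or filter peaks, and the tag counts and summit heights entered no comparison.

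From the reads, 1 per position and strand was kept, moved 60 bp towards the fragment centre and counted in each of the 8889 wild-type E2F3 peaks. Counts were scaled by reads outside all 27089 merged peak regions. Ratios carry exact conditional binomial 95% intervals and shares exact Clopper-Pearson intervals, which cover counting error only. The procedure was tested on simulated data. Python 3.11.15, NumPy 2.4.6, SciPy 1.17.1, pandas 2.3.3 and matplotlib 3.10.9 were used.

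The sites, classes and comparisons were chosen with earlier results of these data known. Sites named are the 10 highest by E2F3 score and by HELLS score, the 5 largest and smallest HELLS ratios whose interval excluded 1, the 5 largest and smallest E2F3 ratios among sites with 50 or more wild-type reads, the 5 highest HELLS ratios over IgG in E2f3-null cells among sites with 50 or more such reads, and the 3 sites on each side of each limit of the rule, of which the text gives a selection. A genome and annotation of mm9 were not used here, so genes, motifs and sequences at the sites were not analysed. Alternatives tried were every deposited read, other scalings, a 1.5-fold threshold, a 500 bp window, autosomes only, unshifted reads, stricter peak scores and stricter overlap rules.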

Additional observations from a re-analysis of the deposited data

How the results depend on the processing

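Settings that moved a count by over 1.5 times or a median past its interval are given here. Shares over all E2F3 peaks are given for the main setting only. The counts at other settings therefore show how a count depends on the setting, and nothing else is read from them. Requiring E2F3 and HELLS scores of 100 or more left 226 sites, and requiring a HELLS false discovery rate of 5% or less, chosen after seeing the data, left 179, so counts shrank with the sites. At a score of 100, E2F3 was lower in E2f3-null cells at 189 sites and higher than IgG at 180, H3K27me3 was lower than IgG at 72 and lower than wild type at 126, HELLS was lower than wild type at 0, higher at 1 and higher than IgG at 209, and E2f3-null peaks of E2F3, HELLS and H3K27me3 lay on 143, 192 and 0. Median log2 ratios over IgG were then 1.39 (E2F3), 1.80 (HELLS) and −1.23 (H3K27me3), and that of HELLS over wild type 0.059. At the false discovery rate limit the counts, in the same order, were 137, 102, 66, 88, 2, 2 and 143, with peaks on 92, 136 and 0, medians over IgG of 1.15 for E2F3 and 1.44 for HELLS, and differences of medians from E2F3-only peaks of 0.38 and 0.63. E2f3-null peaks of score 100 or more lay on 218 (E2F3), 585 (HELLS) and 1 (H3K27me3) of the sites, and with summits within 250 bp 2 sites had an E2f3-null H3K27me3 peak. In a 500 bp window at the summit H3K27me3 was lower than IgG at 176 sites, lower than wild type at 307 and higher at 1, and HELLS was higher than wild type at 23. Medians there were −1.64 for E2F3 and −1.64 for H3K27me3 over wild type, and 1.34 for E2F3 and 1.66 for HELLS over IgG, with differences from E2F3-only peaks of 0.57 and 0.80. With all distinct reads as the scale, medians were −1.34 for E2F3 and −1.58 for H3K27me3 over wild type and 1.49 for HELLS over IgG. With unshifted reads H3K27me3 over IgG stood at −1.34, which equals the main value after rounding. At 1.5-fold HELLS was higher at 68 sites.

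Scaling to the median of peaks with an E2f3-null peak gave medians of −0.24 for E2F3 and −0.47 for H3K27me3, left 156 sites lower and 15 higher for E2F3, 54 lower and 5 higher for H3K27me3, and 55 lower and 1 higher for HELLS. It reversed the median HELLS log2 ratio to −0.23, and the E2F3 log2 ratio at chr13:112279994-112280983 to 0.031, at chr3:35831231-35832150 to 0.35 and at chr4:53452872-53453884 to 0.012. This scaling moves the log2 ratios of all sites of an antibody by the same amount, so ratios near 0 change sign. Which scaling is nearer to the truth was not tested. Among ratios of single named sites under all settings, 775 stayed within their interval, 42 moved and those 3 reversed. No paired analysis was possible because each group has 1 library, and for the same reason no library could be left out. Depth limits the E2f3-null H3K27me3 values most. Motifs and genes at the sites were not run, as no genome of mm9 was used.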

Other observations

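Co-bound sites were spread over the autosomes and scarce on the X chromosome. Each of the 19 autosomes held 38 to 98 of them, which was 10.8% to 15.9% of its E2F3 peaks. On the X chromosome 7 of 176 E2F3 peaks were co-bound (3.98%, exact 95% interval 1.61 to 8.02), and on the Y chromosome 1 of 1. The co-bound share also differed with the E2F3 score, and the part of score, width or depth in the low X share was not tested. The median log2 ratio of HELLS over IgG in E2f3-null cells ran from 1.38 to 1.70 over the autosomes and was 1.53 at the 7 X-linked sites.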
